A study of Mus musculus with 8 samples.

Results

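The interferon-inducible GTPases described here are 10 genes: 5 guanylate-binding proteins (GBPs: Gbp2, Gbp3, Gbp4, Gbp6 and Gbp7) and 5 immunity-related GTPases (IRGs: Irgm1, Irgm2, Igtp, Iigp1 and Tgtp2). They are the entries with these gene names in both deposited tables, 10 of 40178 genes listed in either table (28349 for the colon and 38649 for the ileum). The family was picked with the genotype differences of these libraries already known. So the levels and fold changes of the 10 genes between genotypes, and between tissues, are given as a description: counts of members past a threshold stand beside the share of all genes past it, no p is given for a member in these contrasts, and nothing is supported with them.

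RNAseq was performed on intestinal epithelial cells (IECs), the cells that EDTA washes release from the gut wall, of 8-week-old mice. WT mice were Ddx5 +/+ and DDX5KO mice Ddx5 fl/fl, and both carried Villin1Cre, a recombinase driven by the promoter of an epithelial gene, so the controls carry the Cre as well. The 8 libraries are WT colon, DDX5KO colon, WT ileum and DDX5KO ileum with 2 replicates each, from 4 mice, because one mouse gave the colon and the ileum library of the same genotype and replicate number. DDX5, the RNA helicase deleted here, binds and remodels RNA, and the comparison asks which transcripts depend on it in each part of the gut.

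GBPs and IRGs are made by most cell types after exposure to interferon, above all interferon gamma. GBPs are large GTPases that coat bacteria and the vacuoles of intracellular parasites and help to open them and to trigger inflammasomes. Among the IRGs, Irgm1, Irgm2 and Igtp (also called Irgm3) are regulators that sit on the membranes of the host cell and hold the effector IRGs inactive there, while Iigp1 (Irga6) and Tgtp2 (Irgb6) are effectors that load onto the vacuole of the parasite and rupture it. In the gut epithelium they belong to the defence of the cell against invading microbes.

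The genes lie in clusters. In GENCODE vM21 on GRCm38, 9 of the 10 members could be placed by the identifier in the tables. Gbp7 (ENSMUSG00000040253.15), Gbp3 (ENSMUSG00000028268.14) and Gbp2 (ENSMUSG00000028270.12) lie on the plus strand of chromosome 3, at chr3:142530342-142550149, chr3:142560026-142573209 and chr3:142620602-142638008. Gbp4 (ENSMUSG00000079363.7, chr5:105115767-105139586) and Gbp6 (ENSMUSG00000104713.4, chr5:105270702-105293698) lie on the minus strand of chromosome 5. Of the IRGs, Irgm1 (ENSMUSG00000046879.7, chr11:48861968-48871683) and Tgtp2 (ENSMUSG00000078921.3, chr11:49057194-49064206) lie on the minus strand of chromosome 11, and Igtp (ENSMUSG00000078853.8, chr11:58199556-58207591) and Irgm2 (ENSMUSG00000069874.7, chr11:58199618-58222782) on its plus strand. Iigp1 is listed under another version of its identifier and was not placed. The clusters bear on the counting. On the same strand, the gene span of Gbp4 overlaps those of Gbp8 and Gbp9, that of Gbp6 overlaps Gm43302 and that of Gbp7 overlaps Gm43802, and the spans of Igtp and Irgm2 overlap each other. Of the 50-base words in the transcripts of Tgtp2, 86.6% also occur in another gene, mostly its near copy Tgtp1 (85.8%), and of those of Gbp6 70.7%, mostly in Gm43302 (65.0%). For the other 8 members this share was between 0.310% (Irgm1) and 12.7% (Gbp7). Only uniquely mapped reads were counted, and how reads from shared words were assigned was not tested, so the values of Tgtp2 and Gbp6 are uncertain.

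The bases just before the start of the genes are shown because interferon-responsive motifs are known from such genes. Promoter windows of 300 bases from RefSeq (250 bases before the start and 50 after it, build GRCm38.p6) were given for 7 of the 10 members; Gbp4, Gbp6 and Iigp1 had no entry. Both strands were searched for 2 motifs: the core of the interferon-stimulated response element (ISRE), GAAANNGAAA or TTTCNNTTTC, the site of the IRF and ISGF3 factors, and the core of the gamma-activated site (GAS), TTCNNNGAA, a site that interferon gamma signalling acts on, which reads the same on both strands. Capitals mark the matches:

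Gbp2, plus strand, chr3:142620594-142620623: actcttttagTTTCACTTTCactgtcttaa
Gbp3, plus strand, chr3:142559992-142560021: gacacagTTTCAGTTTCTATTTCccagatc
Gbp7, plus strand, chr3:142530215-142530307: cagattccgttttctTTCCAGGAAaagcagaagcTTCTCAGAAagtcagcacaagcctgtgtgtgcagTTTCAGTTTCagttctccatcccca
Irgm1, minus strand, chr11:48871428-48871457: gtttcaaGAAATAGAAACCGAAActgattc
Irgm2, plus strand, chr11:58214887-58214937: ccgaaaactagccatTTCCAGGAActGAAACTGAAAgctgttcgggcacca
Igtp, plus strand, chr11:58199496-58199546: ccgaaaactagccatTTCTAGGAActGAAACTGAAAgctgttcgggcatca
Tgtp2, minus strand, chr11:49064258-49064308: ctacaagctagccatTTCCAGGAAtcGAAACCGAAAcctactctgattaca

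Each of the 7 genes had an ISRE core before its start, beginning between 70 bases (Tgtp2) and 24 bases (Irgm1) before it when the match nearest the start is taken. Of all 27025 genes with a window, 1079 (3.99%) held one. Counted by window, it was 7 of the 8 member windows and 1131 of all 32851 windows (3.44%). Gbp3 and Irgm1 each had 2 overlapping ISRE matches, which give the longer runs of capitals, and Gbp7 had 2 GAS matches. Gbp3 has a second annotated start, whose window held no match. The GAS core stood in the windows of 4 of the 7 members (Gbp7, Igtp, Irgm2 and Tgtp2), against 2582 of all 27025 genes (9.55%). Counted by window, it was 4 of the 8 member windows and 2726 of all windows (8.3%). Outside the 10, the windows of 5 other family genes were given (Gbp2b, Gbp5, Gm12250, Ifi47 and Tgtp1), and 4 of these 5 held the ISRE core and 3 the GAS core. In the 3 IRGs among the members with a GAS core, the GAS core and the ISRE core were 2 bases apart. The stretches of Igtp and Irgm2 were the same at 49 of 51 bases, and that of Tgtp2 was the same as Irgm2's at 36 of 51. The stretches of Gbp2 and Irgm1 overlap an exon of the GENCODE model of the same gene, which begins further upstream than the RefSeq start. The stretch of Irgm2 overlaps no exon but lies inside the GENCODE span of the gene, which begins at chr11:58199618, well upstream of the RefSeq start used. A match is a description of the letters and does not show that a factor binds there.

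Total counts per library ranged from 11571061 to 22984283, and the 10 members together took between 852 counts (DDX5KO ileum replicate 2) and 5061 (WT colon replicate 2). Ddx5 was 770 and 705 CPM in WT colon and 367 and 354 in DDX5KO colon, and 699 in both WT ileum libraries against 339 and 326 in DDX5KO ileum. The counts are over all exons, so Ddx5 checks the labels only in direction. CPM stands here for the count of a gene scaled to the TMM-adjusted total of its library, over all 8 libraries. 1 library stood apart: DDX5KO ileum replicate 2 had 19.5% of its counts on 3 repeat-like genes. The 7 epithelial markers (Epcam, Vil1, Cdh1, Krt8, Krt18, Krt19 and Krt20) had counts in every library, and summed to between 10543 and 17313 CPM. The study describes the replicates as pairs of cohoused littermates, and the labels give only their numbers.

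Among the members, levels in WT colon were compared per length, as CPM per kilobase of exon. Igtp stood at 11.9 ± 1.14, Irgm1 at 11.6 ± 1.14 and Irgm2 at 10.5 ± 0.145 CPM per kilobase (SD, n = 2), and in this order of the IRG regulators neighbours did not differ beyond their spread. Gbp2 followed with 8.63 ± 0.685 and the effector Iigp1 with 7.17 ± 0.581. Gbp3 (4.47 ± 0.318) and Gbp7 (3.56 ± 0.456) were next, both GBPs of the chromosome 3 cluster. The lowest were Gbp6 (0.970 ± 0.161), Tgtp2 (0.805 ± 0.280) and Gbp4 (0.262 ± 0.0552), with Gbp6 and Tgtp2 overlapping in their spread. These values use the full exon length, and most words of Gbp6 and Tgtp2 are shared with other genes, so the place of both in the order is uncertain. The regulators that guard host membranes were the most abundant of the IRG transcripts listed. In WT ileum the order began with Irgm1 (8.54 ± 2.13 CPM per kilobase), Igtp (7.70 ± 5.61) and Irgm2 (5.19 ± 2.59), and the wide SDs there come from a difference between the replicates given further on.

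In the colon all 10 genes had less RNA in DDX5KO than in WT. Both DDX5KO libraries lay below both WT libraries for 10 of 10 members, and so did 20.8% of the 15362 genes tested. Summed over the 10 genes, WT colon had 215 and 223 CPM in replicates 1 and 2 and DDX5KO colon 95.1 and 143. The study's criterion asks for a log2 fold change of 0.5 or more, up or down, and an unadjusted p under 0.05. By it, 9 of the 10 members were called lower and 0 higher, and Gbp4 was not called. Of all genes tested, 3.67% were called lower, but the members were picked for this contrast and nothing is read from that difference. The median log2 fold change was -1.20 over the members and 0.00 over all genes tested. In bulk RNA, fewer cells that express a gene and less RNA per cell cannot be told apart.

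**Figure D1:**
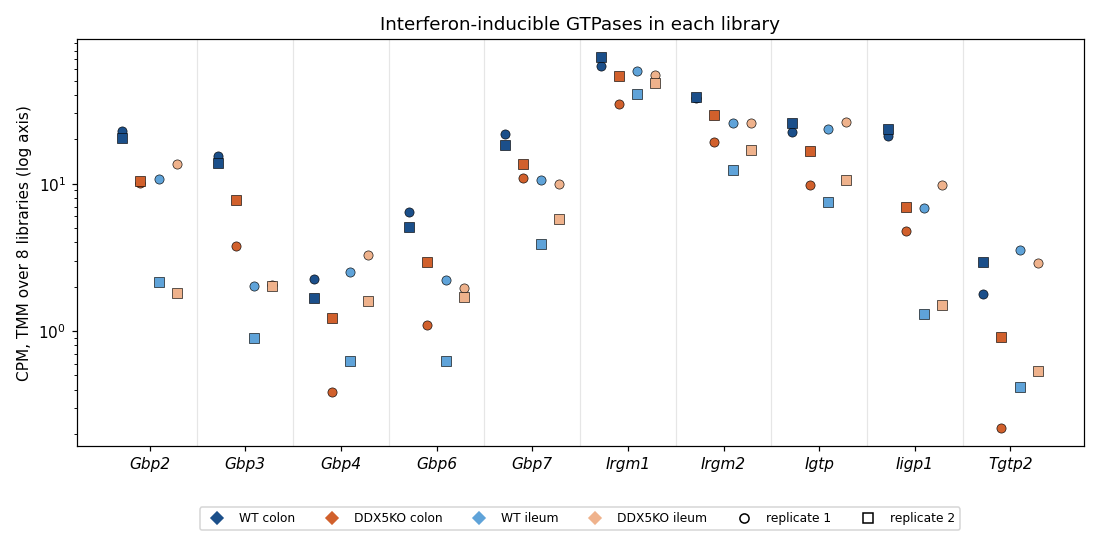
CPM (TMM over all 8 libraries, log axis) of the 10 genes, one point per library, with colour for the group and a circle or square for replicate 1 or 2. In the colon both DDX5KO points lie below both WT points for each of the 10 genes, and in the ileum the circles lie above the squares in both genotypes, in Gbp3 of DDX5KO only just.

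The 5 GBPs fell short of WT colon by different amounts. Gbp2 was 22.9 and 20.5 CPM in WT colon replicates 1 and 2 and 10.1 and 10.4 in DDX5KO colon, a log2 fold change of -1.09 ± 0.13 (standard error). Its replicates lay close together in both genotypes. Gbp3 was 15.3 and 13.8 CPM in WT and 3.80 and 7.74 in DDX5KO (log2 fold change -1.40 ± 0.31). Gbp7 was 21.8 and 18.2 CPM in WT and 10.9 and 13.6 in DDX5KO (-0.72 ± 0.18). These are the GBPs of the chromosome 3 cluster. For each, as for all 10 members and 20.8% of the genes tested, the lowest WT library was above the highest DDX5KO library. The chromosome 5 GBPs were lower and more scattered. Gbp6 was 6.45 and 5.10 CPM in WT and 1.10 and 2.96 in DDX5KO (log2 fold change -1.57 ± 0.45). Gbp4 was 2.26 and 1.67 CPM in WT and 0.386 and 1.23 in DDX5KO (-1.30 ± 0.55), from as few as 7 counts in DDX5KO replicate 1. Gbp4 thus had a log2 fold change near those of Gbp3 and Gbp6 with a larger error.

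The IRG regulators, whose proteins protect host membranes, had the smallest differences of the IRGs. Irgm1, the member with the highest CPM, was 62.5 and 71.9 CPM in WT colon and 34.8 and 53.5 in DDX5KO colon (log2 fold change -0.64 ± 0.13). Irgm2 was 38.2 and 39.0 CPM in WT and 19.2 and 29.1 in DDX5KO (-0.71 ± 0.16). Igtp was 22.5 and 25.7 CPM in WT and 9.76 and 16.8 in DDX5KO (-0.91 ± 0.17). In all 3 regulators DDX5KO replicate 1 was the lower one. The effectors had the 2 largest log2 fold changes among the members. Iigp1 was 21.1 and 23.7 CPM in WT and 4.80 and 6.92 in DDX5KO (log2 fold change -1.96 ± 0.16). Tgtp2 was 1.78 and 2.95 CPM in WT and 0.220 and 0.910 in DDX5KO (-2.13 ± 0.42), from 4 and 20 counts in DDX5KO. The standard errors of Iigp1 and Tgtp2 overlap, and the value of Tgtp2 is uncertain because most of its words are shared with Tgtp1. The members were picked for this contrast, so the order of 2 effectors and 3 regulators is a description and was not tested.

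The size of the difference depended on the replicate. DDX5KO colon replicate 1 was below replicate 2 for 10 of 10 members, though by little for Gbp2. The share of all genes with this order was not counted, so the count is a description. Within replicate 1, WT had between 1.79-fold (Irgm1) and 8.09-fold (Tgtp2) the CPM of DDX5KO, and within replicate 2 between 1.34-fold and 3.42-fold. The summed level was 2.26-fold higher in WT within replicate 1 and 1.56-fold within replicate 2. In WT colon the replicates of the members differed less. Among the members, 5 of 5 GBPs were higher in replicate 1 and 5 of 5 IRGs in replicate 2. The replicate 1 to 2 ratios ran from 0.605 (Tgtp2) to 1.35 (Gbp4). GBPs and IRGs outside the 10 did not all split this way. Gbp5, Gbp8 (2.52 and 3.17 CPM) and Gm12250 (12.2 and 9.80 CPM) went against it, and Gbp9, Tgtp1, Ifi47 and Gm4951 went with it. These counts too stand without a share of all genes.

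By the quasi-likelihood test of edgeR (p adjusted by Benjamini-Hochberg), 0 of 15362 genes had an adjusted p under 0.05 in the colon, while 1836 had an unadjusted p under 0.05 and DESeq2 gave 117 genes with an adjusted p under 0.05. Without DDX5KO colon replicate 1 (and without the replicate block), the median log2 fold change of the members was -0.80, and without DDX5KO colon replicate 2 it was -1.64, and all 10 were negative in both.

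The other interferon-inducible GTPases (called other family genes) are GBPs and IRGs outside the 10, with Mx1, Mx2 and Gvin1, which are neither. They were lower in DDX5KO as well. Of 15 listed, 10 passed the filter on low counts in the colon, and 10 of the 10 were called lower in DDX5KO (3.67% of all genes). This list, like the pathway, partner and marker lists below, was chosen with earlier results of these data known. Its counts and p are therefore a description and no independent support. Their median log2 fold change was -1.41. Mx1, the gene of a dynamin-like GTPase, was 39.6 and 27.3 CPM in WT colon and 8.82 and 14.9 in DDX5KO colon (-1.51 ± 0.31 as log2 fold change, unadjusted p = 0.00501, adjusted p = 0.269, edgeR). Ifi47 (Irgd), another IRG, was 22.0 and 26.2 CPM in WT and 5.13 and 17.4 in DDX5KO (-1.28 ± 0.36, unadjusted p = 0.017, adjusted p = 0.332, edgeR), and without DDX5KO colon replicate 1 its log2 fold change was -0.49, under the fold limit. Tgtp1, the near copy of Tgtp2, had -2.09 ± 0.36 and shares most of its sequence with it, so these are not independent values. Gbp5, Gbp9 and Gbp8 had log2 fold changes of -1.67, -1.41 and -0.85, Gm12250, Gm4951 and Gvin1 had -1.26, -1.42 and -1.55, and Mx2 had -0.78. The unadjusted p of the 10 ran from 0.00243 (Tgtp1) to 0.0277 (Gvin1), and the adjusted p from 0.246 to 0.358 (edgeR). The call did not hold in every fit: DESeq2 called 5 of the 10, with Mx1 and Ifi47 at an adjusted p of 0.000344 and 0.0204, and without the replicate block 8 were called, with Ifi47 and Gvin1 lost. With 1 library left out, 5 were called without WT colon replicate 1, 4 without WT replicate 2 and 6 without DDX5KO replicate 1. The 5 that were not tested (Gbp2b, Gbp10, Gbp11, F830016B08Rik and Irgc1) had at most 13 counts in any library.

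**Figure D2:**
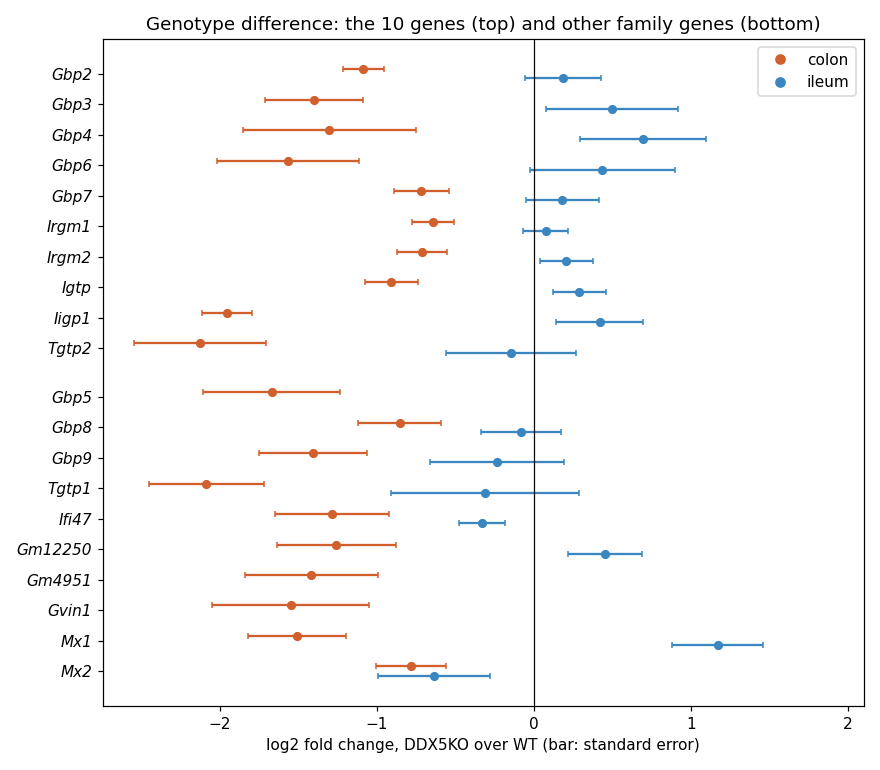
Log2 fold change of DDX5KO over WT with its standard error, in the colon and the ileum, for the 10 genes (upper block) and the other family genes tested (lower block). All colon points lie left of 0, and the ileum points lie on both sides of 0, with Mx1 at 1.17; a gene without an ileum point was not tested there.

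Few of the genes above and beside the GTPases moved with them in the colon. Of 40 listed genes of interferon signalling and of GTPase partners, 36 were tested, 3 were called lower and 1 higher (3.67% and 3.04% of all genes), and their median log2 fold change was 0.02. Ifng, the interferon gamma gene itself, had between 0 and 6 counts in any library, so a change of it was not detectable at this depth. Of the receptors, 0 of 6 tested were called. Ifngr1, the chain that binds interferon gamma, was 208 and 183 CPM in WT and 289 and 248 in DDX5KO (log2 fold change 0.45 ± 0.08, unadjusted p = 0.00293, adjusted p = 0.26, edgeR), just under the fold limit. Irf1, which binds ISREs, was 150 and 162 CPM in WT and 173 and 172 in DDX5KO.

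The 4 pathway genes called in the colon are known for different things. Stat2, a subunit of the ISGF3 complex that type I and III interferons activate, had a log2 fold change of -0.55 ± 0.16 (unadjusted p = 0.0165, edgeR). Socs1, an interferon target that feeds back to block JAK kinases, was 6.45 and 4.62 CPM in WT and 1.38 and 2.91 in DDX5KO (-1.39 ± 0.41, unadjusted p = 0.0211, edgeR). Rnf213, a giant ubiquitin ligase that marks intracellular bacteria, had -0.55 ± 0.19 (unadjusted p = 0.0344, edgeR), with DDX5KO replicate 2 (492 CPM) between the WT values of 487 and 552. Socs3, the feedback inhibitor of STAT3 signals, went the other way (1.39 ± 0.43, unadjusted p = 0.0236, edgeR). The adjusted p of these 4 lay between 0.33 and 0.384 (edgeR). The number called was 9 without DDX5KO colon replicate 2 and 2 without any other colon library. Of the 17 partner genes, which include the ATG conjugation genes that IRG and GBP loading needs and the caspases downstream of GBPs, Rnf213 was the 1 called, and Atg5 (0.05 ± 0.09) and Casp4 (-0.30 ± 0.21) were not. DESeq2 called 5 pathway and partner genes, 4 of them lower, among them Usp18, which edgeR did not call. Usp18 was 15.2 and 15.7 CPM in WT colon and 6.23 and 13.8 in DDX5KO colon (log2 fold change -0.74 ± 0.35, unadjusted p = 0.0372, adjusted p = 0.749, DESeq2).

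**Figure D3:**
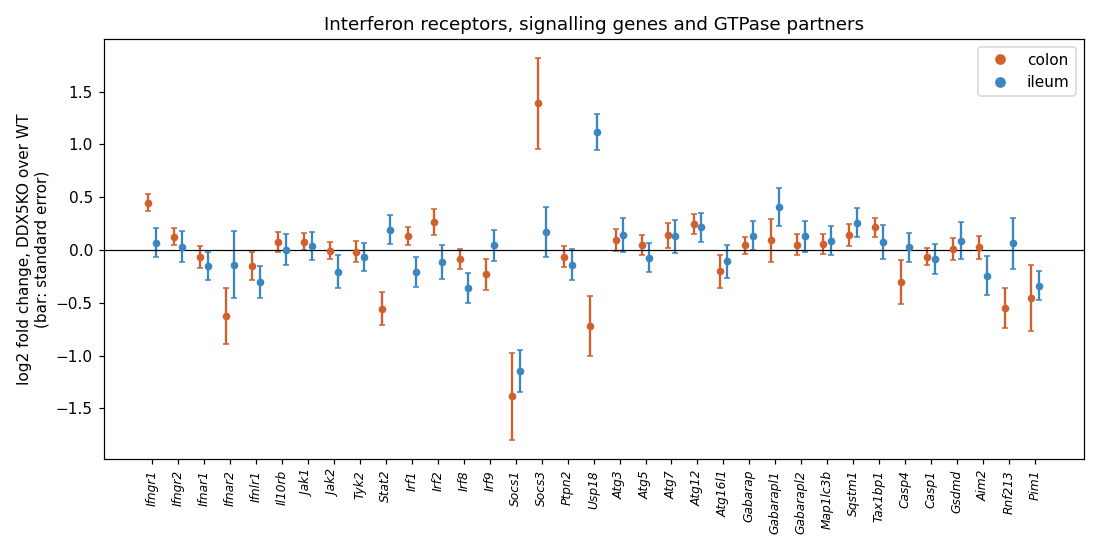
Log2 fold change of DDX5KO over WT with its standard error for tested genes of interferon receptors, JAK-STAT and IRF signalling and GTPase partners (1 of the 36 is not drawn). Most points lie near 0; Socs1 lies below 0 in both tissues, and Usp18 lies above 0 in the ileum.

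Markers of T and NK cells moved with the GTPases in the colon. Their 14 genes summed to 56.9 and 41.8 CPM in WT colon and 7.72 and 21.4 in DDX5KO colon; 12 to 14 of them had a count in each of these libraries, with Cd4 at 0 in WT replicate 1 and both DDX5KO libraries, and Cd2 at 0 in DDX5KO replicate 1. Of the 10 tested, 7 were called lower and 0 higher (3.67% and 3.04% of all genes), and 0 had an adjusted p under 0.05 in edgeR. DESeq2 called 5 lower, and 1 had an adjusted p under 0.05 there, Ptprc (log2 fold change -1.45 ± 0.34, adjusted p = 0.00525, DESeq2). Ptprc was 22.2 and 19.9 CPM in WT and 5.40 and 10.9 in DDX5KO, a large part of the sum. Gzma, a granzyme of cytotoxic cells, was 10.3 and 7.17 CPM in WT and 0.276 and 2.73 in DDX5KO (log2 fold change -2.69 ± 0.79, unadjusted p = 0.0201, edgeR). Its adjusted p was 0.656 by DESeq2. The order of the DDX5KO replicates was that of the GTPases, replicate 1 below replicate 2. Macrophage and dendritic cell markers (9 genes) summed to 35.3 and 31.7 CPM in WT and 22.2 and 30.6 in DDX5KO, most of it Cd14, and 0 of 3 tested were called. Stromal and endothelial markers (9 genes) summed to 10.5 and 15.1 in WT and 14.1 and 5.96 in DDX5KO, with 1 called lower and 1 higher of 5 tested, and B and plasma cell markers (6 genes) to between 0.352 and 1.502 CPM, with 0 of 1 called. The 7 epithelial markers summed to 10816 and 10543 CPM in WT and 11937 and 11166 in DDX5KO, and 0 of 7 were called. The part of lymphocyte RNA in the result for the GTPases was not tested.

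**Figure D4:**
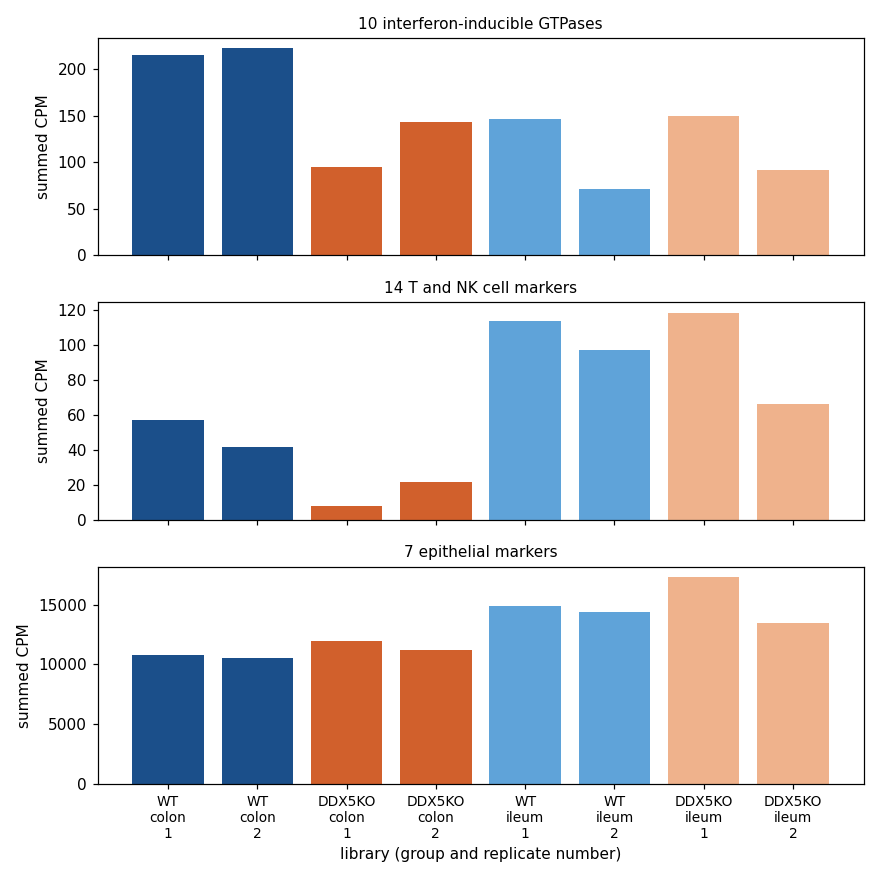
Summed CPM per library of the 10 genes, the 14 T and NK cell markers and the 7 epithelial markers, with bars from 0. In the colon the first 2 sums are lower in both DDX5KO libraries, and the epithelial sum is not.

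In the ileum the 10 genes did not fall with DDX5KO. At the criterion of the study 0 members were called lower and 0 higher, where 3.48% of the 14068 genes tested were called lower and 3.87% higher. Without WT ileum replicate 1 (and without the replicate block), 4 members (Gbp4, Gbp7, Igtp and Irgm2) were called higher. 9 of the 10 log2 fold changes were above 0, from -0.15 ± 0.41 for Tgtp2 to 0.70 ± 0.40 for Gbp4 (standard error), and the median was 0.25 (0.00 over all genes). In 4 members (Gbp3, Gbp4, Iigp1 and Igtp) DDX5KO was above WT within both replicate numbers, and in the other 6 the replicates went in opposite directions. The share of all genes was not counted for this, so it is a description. Both DDX5KO libraries lay above both WT libraries for 1 member (Gbp3, by little), and for 18.6% of the genes tested. Summed over the 10 genes, WT ileum had 146 and 70.7 CPM in replicates 1 and 2 and DDX5KO ileum 150.0 and 91.0.

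Instead, the ileum libraries were ordered by replicate number. All 10 members were higher in replicate 1 than in replicate 2, in WT and in DDX5KO, as were 28.9% of the genes tested in the ileum. Both replicate 1 libraries stood above both replicate 2 libraries for 9 members, and for 19.2% of the genes tested. Gbp2 was 10.7 and 2.15 CPM in WT ileum replicates 1 and 2 and 13.6 and 1.82 in DDX5KO ileum. Iigp1 was 6.86 and 1.32 CPM in WT and 9.73 and 1.49 in DDX5KO. Igtp was 23.6 and 7.55 CPM in WT and 26.1 and 10.6 in DDX5KO. In each, both replicate 1 libraries stood above both replicate 2 libraries, and the genotypes overlapped. The same held for Tgtp2, with 3.55 and 0.416 CPM in WT and 2.90 and 0.534 in DDX5KO, and for Irgm2, with 25.9 and 12.4 CPM in WT and 25.8 and 17.0 in DDX5KO. Gbp7 was 10.5 and 3.88 CPM in WT and 9.92 and 5.77 in DDX5KO, again with replicate 1 on top. Gbp4 (2.53 and 0.623 CPM in WT, 3.28 and 1.60 in DDX5KO) and Gbp6 (2.21 and 0.623 in WT, 1.97 and 1.71 in DDX5KO) had their low value in WT replicate 2. Gbp3 was 2.03 and 0.90 CPM in WT and 2.06 and 2.03 in DDX5KO, so 3 of its 4 libraries were alike. Irgm1, the member that varied least, was 58.4 and 40.9 CPM in WT and 54.7 and 48.5 in DDX5KO.

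This order was looked at after the values had been seen, and the replicate number was a term of the fit for every gene. In the ileum 108 genes had an adjusted p under 0.05 for that term (0.768% of 14068), and 4 members were among them, all higher in replicate 1: Gbp2 (log2 ratio of replicate 1 to replicate 2 2.56 ± 0.25, adjusted p = 0.00113), Iigp1 (2.52 ± 0.29, adjusted p = 0.00253), Igtp (1.48 ± 0.17, adjusted p = 0.00253) and Tgtp2 (2.79 ± 0.45, adjusted p = 0.016; edgeR's quasi-likelihood test). The other 6 had log2 ratios from 0.34 (Irgm1) to 1.49 (Gbp4) and adjusted p from 0.0592 to 0.675. Over 4 other fits added after the data were seen, between 3 and 7 members passed, and Tgtp2 did not with DESeq2 (adjusted p = 0.108). What libraries with the same replicate number share, beyond the pairing of littermates, was not tested. In the colon of the same mice the term had 1 gene with an adjusted p under 0.05 (0.00651% of 15362) and 0 members, whose log2 ratios ran from -1.10 (Tgtp2) to 0.06 (Gbp2).

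**Figure D5:**
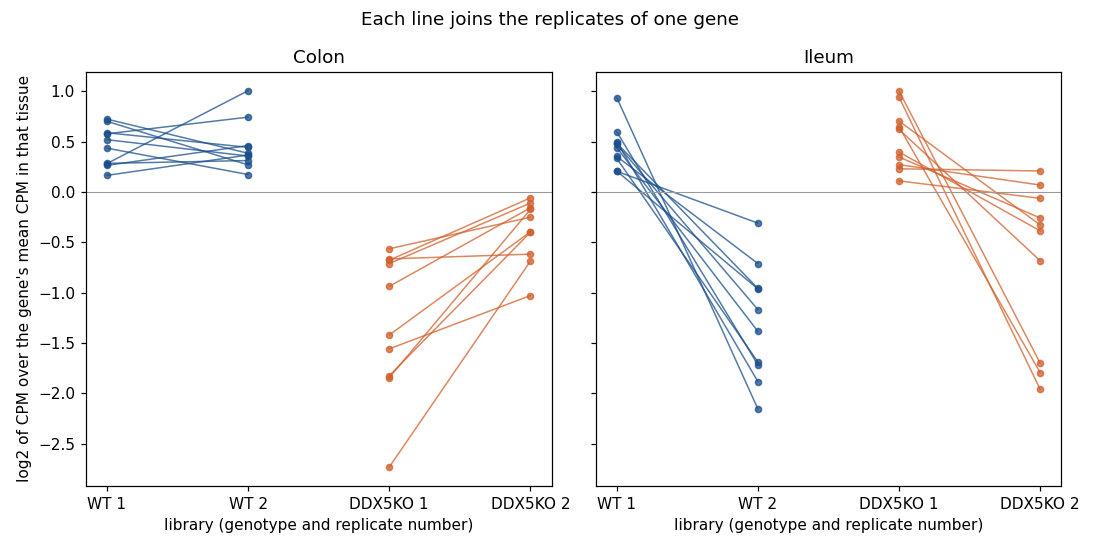
Log2 of the CPM over the mean CPM of the gene in that tissue, for replicates 1 and 2 of WT and DDX5KO, with a line for each of the 10 genes. In the colon the lines of DDX5KO lie below those of WT, and in the ileum the lines fall from replicate 1 to replicate 2 in both genotypes.

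Other genes were higher in ileum replicate 1 as well. Gbp8, a GBP of the chromosome 5 cluster, was 9.30 and 1.94 CPM in WT and 8.80 and 1.82 in DDX5KO (log2 ratio 2.26 ± 0.26, adjusted p = 0.00253, edgeR). Socs3 (2.04 ± 0.24, adjusted p = 0.00292, edgeR) and the inflammatory caspase gene Casp4 (0.92 ± 0.14, adjusted p = 0.0109, edgeR) were the 2 of 36 pathway and partner genes that passed. The Mx genes did not share the order: Mx2 had a log2 ratio of -0.81 ± 0.35 (adjusted p = 0.467, edgeR). Of 10 T and NK cell markers tested, Gzma (1.56 ± 0.20, adjusted p = 0.00331, edgeR) and Gzmb (1.94 ± 0.23, adjusted p = 0.00264, edgeR) passed. The 14 markers summed to 114 and 97.0 CPM in WT ileum and 119 and 66.3 in DDX5KO ileum, and Cd2 was at 0 in DDX5KO replicate 2. A large part of this sum was Ptprc, with 46.1 and 67.7 CPM in WT and 41.9 and 42.1 in DDX5KO. Of the 10 markers tested, 1 had a log2 ratio of replicate 1 to replicate 2 below 0, and the median was 0.93 (-0.01 over all genes). The macrophage and dendritic cell markers summed to 15.5 and 10.04 in WT and 19.2 and 15.7 in DDX5KO (1 of 5 tested called higher in DDX5KO), the stromal and endothelial ones to 4.38 and 2.98 and to 5.24 and 4.48, and the B and plasma cell ones to at most 3.10 CPM in any ileum library. The 3 repeat-like genes took 4.04% and 3.93% of counts in WT ileum replicates 1 and 2, and 0.226% and 19.5% in DDX5KO ileum. Whether the make-up of the libraries bears on the replicate order was not tested. With these 3 genes left out, 4 members passed for the replicate term. The part of lymphocyte RNA was not tested here either.

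Between genotypes in the ileum, 7 of the 15 other family genes were tested, and 1 was called, Mx1, which was higher in DDX5KO. Mx1 was 3.64 and 6.10 CPM in WT ileum and 12.7 and 8.54 in DDX5KO ileum (1.17 ± 0.29 as log2 fold change, unadjusted p = 0.00197, adjusted p = 0.116, edgeR), against -1.51 in the colon. Of 36 pathway and partner genes, 1 was called lower and 1 higher. Usp18, the interferon target that removes ISG15 and dampens the type I receptor, was 9.17 and 10.1 CPM in WT and 18.1 and 24.1 in DDX5KO (1.12 ± 0.17, adjusted p = 0.0191, edgeR). Socs1 was 18.0 and 19.5 CPM in WT and 9.92 and 6.94 in DDX5KO (-1.15 ± 0.20, adjusted p = 0.0288, edgeR). Neither passed with DESeq2 (adjusted p = 0.0742 and 0.117) or without the replicate block (adjusted p = 0.305 for both, edgeR).

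Whether the genotype difference differs between the tissues was fitted as an interaction over the 8 libraries. 2 of 16178 genes (0.0124%) had an adjusted p under 0.05 by edgeR, 755 had an unadjusted p under 0.05 and DESeq2 gave 17; 0 members passed in either tool, and 4 did in edgeR when genes of low counts were kept. The estimates were above 0 for all 10 members, from 0.66 ± 0.32 (Irgm1) to 2.34 ± 1.05 (Iigp1), and the 2 genotype differences they are made of share the 4 mice. Their median was 1.53, 2.72 without WT ileum replicate 1, 0.82 without WT ileum replicate 2 and 0.44 without DDX5KO ileum replicate 1, where 9 of the 10 were above 0. The members' difference in the colon and its absence from the calls in the ileum is therefore not shown to be a difference between the tissues. For Mx1 the interaction was 2.65 ± 0.49 (adjusted p = 0.639, edgeR); DESeq2 gave an adjusted p of 0.000113, and the edgeR alternatives gave 4.08e-16 with all genes unfiltered and 0.0758 to 1 otherwise.

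In WT mice most of the GTPases had lower mean levels in the ileum than in the colon, but not in every library: in WT ileum replicate 1, Gbp4 (2.53 CPM) and Tgtp2 (3.55 CPM) were above both WT colon libraries. All 10 log2 ratios of WT ileum to WT colon were below 0, with a median of -1.20 (-0.02 over all genes), which was -2.43 without WT ileum replicate 1 and -0.75 without WT ileum replicate 2. Without WT ileum replicate 2, 8 of the 10 were below 0, and without WT colon replicate 2, 9 were. In the fit of all 4 libraries, 6 members (Gbp2, Gbp3, Gbp6, Gbp7, Iigp1 and Irgm2) had an adjusted p under 0.05, as did 43.6% of the 15611 genes tested. This comparison shares the WT colon libraries with the comparison the members were picked for, so the members' values are a description. Gbp3 had the largest ratio, with 14.6 ± 1.04 CPM in WT colon and 1.46 ± 0.796 in WT ileum (SD, n = 2; log2 ratio -3.23 ± 0.28, standard error). Iigp1 was 22.4 ± 1.81 and 4.09 ± 3.92 CPM (-2.35 ± 0.47), and Irgm1 67.2 ± 6.65 and 49.6 ± 12.4 (-0.43 ± 0.16). Tgtp2 and Gbp4 had ratios of -0.16 ± 0.67 and -0.21 ± 0.52, within their error. How many members passed depended on the libraries: 10 did without WT ileum replicate 1, 6 without WT ileum replicate 2, 2 without WT colon replicate 1, 4 without WT colon replicate 2 and 2 with DESeq2. Of the other family genes, Mx1 was also lower in the ileum (log2 ratio -2.82 ± 0.26, adjusted p = 8.61e-05, edgeR), and Ifi47 was higher (0.73 ± 0.24, adjusted p = 0.0397, edgeR).

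Over the 8 libraries the members followed one pattern to different degrees. The correlation of each with the mean of the 10 (centred log2 CPM, itself included) ran from r = 0.66 for Gbp4 and 0.80 for Tgtp2 to 0.97 for Iigp1 and 0.99 for Irgm2. The mean was highest in the WT colon libraries (1.02 in both, in log2 units from its average over the libraries) and lowest in WT ileum replicate 2 (-1.39). Among other protein-coding genes, those most like it were Ssrp1 (r = 0.98), H2-Q6 (0.97), Tmsb10 (0.96), Ybey (0.95) and Tnf (0.94). They differ in range: Ssrp1, a histone chaperone, lay between 72.5 and 86.2 CPM, while Tnf, the inflammatory cytokine, lay between 0.277 and 3.72 CPM. The 8 libraries come from 4 mice, and the genes were chosen from all genes for a high r, so these values are a description.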

How the data were processed

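The members and gene lists were chosen with earlier results of these data known. Per the labels and the methods of the study, ribosome-depleted stranded libraries were aligned to mm10 with STAR 2.6.1a, and the authors counted uniquely mapped reads over exons (GENCODE vM19) with featureCounts; whether counting used strand is not given in the sources used here. The deposited raw counts were used here. The deposited tables also hold, from the authors' DESeq2 1.18.1 run with a harvest covariate, a normalized signal (counts over a size factor) and their own comparison: a log2 fold change, its error and Wald score, and p-values, none of which was used. 0 columns of per-sample values were left out as belonging to other samples.

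Within each tissue, genes kept by filterByExpr (minimum count 10) were TMM-scaled and tested in edgeR 4.0.16 (R 4.3.3; quasi-likelihood, terms for replicate number and genotype), with Benjamini-Hochberg adjustment over all genes tested. WT ileum was compared with WT colon, and the interaction fitted, over the libraries of both tissues without a block; a gene listed in 1 table only was counted as 0 in the other. Depth ranged from 11571061 to 22984283 counts on genes. The standard error of an edgeR log2 fold change is its size over the square root of the F statistic of the test. DESeq2 1.42.0, RLE scaling, no block, no filter, 3 repeat-like genes (Gm10800, Gm10801 and Gm21738) left out and each library left out were alternatives; alternatives for the replicate term were added after seeing the data. Only the genotype fit within each tissue was tried on simulated counts. These had the same spread for every gene and no replicate effect, so the other fits and the spread of the real replicates were not covered. Named genes are the members, genes of the lists of family, pathway, partner and marker genes with called ones first, Ddx5, and the 5 protein-coding genes whose log2 CPM correlates best with the mean of the members. Same-mouse libraries were matched by the mouse numbers in the study's supplementary column names. 1 gene of the pathway list is counted but not reported here by name.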

Additional observations from a re-analysis of the deposited data

How the results depend on the processing

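In the colon, 10 of 10 members had less RNA in DDX5KO under each alternative run, and between 6 (without WT replicate 2) and 10 (without DDX5KO replicate 2) were called lower. In the ileum 0 members were called lower under any alternative, and 4 were called higher without WT ileum replicate 1 and 0 under the others; their median log2 fold change was 1.41 without WT ileum replicate 1, 0.45 without DDX5KO ileum replicate 2 and -0.27 without either of the other ileum libraries. The replicate 1 minus replicate 2 differences of WT and DDX5KO correlated across genes at 0.240 in the ileum and 0.00559 in the colon, and the pairing of littermates comes from the study's text. Without the replicate block, 9 members were called lower in colon and 0 in ileum, all genes called numbered 1040 and 786, and 8 other family genes were called in colon; with the mouse as replicate block, 7 members differed between WT tissues and 0 had an interaction. DESeq2 with the block called 508 genes in colon, 414 in ileum and 5 other family genes in colon, and without it gave 2 members between WT tissues. Without a filter on low counts, 2 other family genes were called in the ileum, 4 members had an interaction, and 7 passed for the ileum replicate term; the cause was not tested.

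With 1 library left out in turn (no block, so that the lone sample is assumed to vary like the others), all genes called numbered 608 to 2388 in colon (2388 without DDX5KO replicate 2, 608 and 672 without WT replicates 1 and 2) and 479 to 1574 in ileum (1574 without DDX5KO replicate 2, 595 and 479 without WT replicates 1 and 2), other family genes from 4 to 11 and from 1 to 2 in these tissues, pathway and partner genes from 2 to 9 and from 3 to 4, and members between WT tissues from 2 to 10. Depth limits Gbp4 and Tgtp2, with few counts per library, and Ifng and the family genes not tested.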
